A study of Homo sapiens with 24 samples.

Results

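The genes examined were 32 genes of protein folding in the endoplasmic reticulum (ER) and of the unfolded protein response, taken by gene symbol and not by their measured values. They comprised 13 chaperones and folding enzymes, 6 sensors and transcription factors, 10 genes of ER-associated degradation and 3 genes of translocation into the ER. Of the 32 genes, 31 had a probe set that stands for 1 gene only, and the probe set with the highest mean over the 24 arrays was used for each, so that 31 of 19775 measured genes are described. SYVN1, a ubiquitin ligase of ER-associated degradation, was covered only by a probe set shared by several genes and was not measured. The arrays were Affymetrix HG-U133 Plus 2.0 chips of HEK293 cells, a human line derived from embryonic kidney. Cells were transiently transfected with a pcDNA3 plasmid and 24 hours later received 10 ng/ml TNFα, an inflammatory cytokine, or its buffer alone. There were 8 conditions with 3 arrays each: H133W + TNFα, H133W, SIRT6 + TNFα, SIRT6, empty vector + TNFα, empty vector, untransfected cells with TNFα, and unstimulated cells, which were given neither a plasmid nor TNFα. Cells without a plasmid are called untransfected here, while the methods describe them as transfected with no DNA. Whether they received the transfection reagent is not stated. SIRT6 cells received Flag-tagged wild type SIRT6, a NAD-dependent deacetylase of histone H3, and H133W cells received its mutant without deacetylase activity. Only part of the cells in a well take up a plasmid in a transient transfection, so each transfected sample is a mixture of cells with and without it. The methods state 4 hours of TNFα and the series' own description states 1 hour, and the comparisons were designed to ask what SIRT6 and H133W do to gene expression with and without TNFα.

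Proteins that enter the ER are held by chaperones such as BiP (gene HSPA5), oxidised by protein disulphide isomerases, and, if they fail to fold, sent back to the cytosol for degradation. When unfolded protein accumulates, the sensors IRE1 (gene ERN1), PERK (gene EIF2AK3) and ATF6 in the ER membrane are activated. IRE1 splices the mRNA of XBP1 into the form that encodes an active transcription factor, ATF6 is cleaved to release one, and both raise the chaperone and degradation genes, whereas PERK slows translation and raises ATF4, the transcription factor CHOP (gene DDIT3) and their targets. The arrays measured total mRNA per gene, so neither XBP1 splicing nor the activation of a sensor protein was read.

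The DNA elements through which ATF6 and XBP1 act are short enough to be read in the promoters, and those of the genes described here are shown because chaperones are known to be raised together through them. RefSeq promoter windows (GRCh38.p14, 250 bases before to 50 after the start) were at hand for 29 of the 32 genes. The ER stress element (ERSE, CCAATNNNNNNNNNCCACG on either strand) stood in the windows of 7 of these 29 genes, against 0.0769% of all 35116 windows, and the shorter element ERSE-II (ATTGGNCCACG) in 3 of 29, against 0.0541%. The counts are of genes with a match in any of their windows and the percentages of single windows, so the units differ. Capitals below mark the fixed bases of the element, read 5′ to 3′ along the gene's own strand, with 5 bases on either side. CANX held its ERSE in more than 1 of its alternative windows and is shown once.

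HSPA5, chr9:125241386-125241414, minus strand: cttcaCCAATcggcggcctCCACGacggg
HSP90B1, chr12:103930211-103930239, plus strand: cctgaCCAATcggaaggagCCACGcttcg
HSP90B1, chr12:103930316-103930344, plus strand: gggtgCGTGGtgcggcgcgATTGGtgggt
CALR, chr19:12938379-12938407, plus strand: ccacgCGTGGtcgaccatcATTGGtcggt
CANX, chr5:179698773-179698801, plus strand: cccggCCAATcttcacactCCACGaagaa
PDIA6, chr2:10812848-10812876, minus strand: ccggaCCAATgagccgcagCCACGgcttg
CRELD2, chr22:49918549-49918577, plus strand: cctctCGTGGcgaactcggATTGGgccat
XBP1, chr22:28800598-28800626, minus strand: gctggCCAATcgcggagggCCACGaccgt
HYOU1, chr11:119057375-119057395, minus strand: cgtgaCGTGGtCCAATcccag
HYOU1, chr11:119057269-119057289, minus strand: tgggaCGTGGtCCAATgagta
SDF2L1, chr22:21642109-21642129, plus strand: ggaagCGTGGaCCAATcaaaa
HERPUD1, chr16:56932020-56932040, plus strand: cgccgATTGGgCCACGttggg

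HERPUD1, an ER membrane protein of the degradation machinery, is shown in full over the 250 bases before its start, since it was the member that passed the adjusted p in the most contrasts. Besides its ERSE-II it was the only one of the 29 genes with the amino acid response element bound by ATF4 and CHOP (TGATGCAA on either strand, in 0.866% of all windows), which stands here on the opposite strand 176 bases before the start. The element UPRE (TGACGTGG, in 0.729% of all windows) was matched in 1 gene, HYOU1, where it overlaps an ERSE-II.

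HERPUD1, chr16:56931892-56932141, plus strand: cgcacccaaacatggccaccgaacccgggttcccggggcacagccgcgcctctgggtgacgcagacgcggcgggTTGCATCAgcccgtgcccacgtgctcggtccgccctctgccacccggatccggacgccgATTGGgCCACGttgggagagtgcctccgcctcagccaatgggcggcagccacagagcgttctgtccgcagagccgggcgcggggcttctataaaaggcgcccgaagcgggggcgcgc

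The deposited values were log2 intensities that ran between 1.52 and 13.75, with array medians of 5.30 to 5.38. Of 6 measured markers listed for HEK293, epithelial or kidney precursor cells, 5 lay over a log2 level of 5. INA (7.85) and NEFM (5.11), which are neuronal filament genes, were among these, and the kidney gene PAX2 (4.99) was not. Of 5 blood markers 0 lay over that level. Of fibroblast markers 2 of 6 (COL1A1 and COL3A1) and of plasma cell markers 1 of 4 (SDC1) lay over that level. A SIRT6 probe set averaged 9.64 ± 0.0946 in H133W + TNFα, 9.73 ± 0.15 in H133W, 9.43 ± 0.162 in SIRT6 + TNFα and 9.34 ± 0.0295 in SIRT6 cells, against 8.84 ± 0.327 in empty vector + TNFα and 8.58 ± 0.781 in empty vector cells (SD, n = 3 each). The second SIRT6 probe set averaged 8.43 in H133W and 8.42 in SIRT6 cells, against 8.35 in empty vector cells, and 8.68 in H133W + TNFα and 8.35 in SIRT6 + TNFα cells, against 8.20 in empty vector + TNFα cells. One array stood apart from the rest: on H133W + TNFα replicate 3 the 3′ probe set of actin exceeded the 5′ one by 3.03 on the log2 scale, against 1.33 to 2.05 on the other 23 arrays. The members on that array differed from the other replicates of their condition by a median of 0.261, against 0.0278 to 0.153 on the other arrays. Over all genes this median was 0.216 on that array, against 0.0619 to 0.149 on the others, so the shift was not particular to the members. Results that rest on that array are given with and without it, and its part in them, as far as it is not shown by those values, was not tested. Empty vector replicate 2 had the next highest actin excess, 2.05, and was kept among the empty vector arrays of the comparisons below.

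With TNFα no ER folding gene passed the threshold for a change in any of the 4 kinds of cells. A gene was counted as called where its limma p, adjusted by Benjamini-Hochberg over all 54675 probe sets, was under 0.05 and its fold change over 1.5. By this rule 0 of 31 members were called in untransfected, empty vector, SIRT6 and H133W cells, where 0.775%, 0.86%, 0.845% and 1.12% of all probe sets were. At the adjusted p alone there were also 0 of 31 in each, against 1.61%, 1.95%, 2.09% and 3.24% of probe sets, and an unadjusted p under 0.05 was found for 1, 2, 2 and 8 members in that order of cells. These were 3.23%, 6.45%, 6.45% and 25.8% of members, against 10.1%, 13.4%, 12.5% and 18.3% of all genes. The arrays did not overlap for 2, 6, 9 and 9 of 31 members, against 15.7%, 22.2%, 26.5% and 22.8% of all genes. The median difference of the members was -0.0166, -0.0401, -0.0367 and -0.0216 on the log2 scale. The 95% confidence intervals bounded the changes: that of every member lay within 1.5-fold either way in the first 3 kinds of cells, and that of 30 of 31 in H133W cells. In such bulk samples a change in the number of responding cells and a change in RNA per cell cannot be told apart.

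The chaperones are given first. HSPA5, the main Hsp70 of the ER, read 11.36, 11.32 and 11.38 in empty vector + TNFα cells, against 11.41, 11.68 and 11.35 in empty vector cells. In untransfected cells it read 11.45, 11.33 and 11.39 with TNFα, against 11.37, 11.44 and 11.36 without. The values overlapped in both pairs, and the differences were -0.12 and -0.0058 with an SE of 0.0883. The 11.68 was that of empty vector replicate 2, the array with the next highest actin excess. In SIRT6 cells HSPA5 was at 11.49, 11.37 and 11.40 with TNFα, against 11.50, 11.55 and 11.42 without. In H133W cells it was at 11.37, 11.33 and 11.70 with TNFα, against 11.41, 11.42 and 11.37 without, where the highest value came from the array that stood apart. Over the 13 chaperones and folding enzymes the median difference lay between -0.0528, in SIRT6 cells, and -0.0185, in untransfected cells.

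Among the ER membrane sensors no call was made either. ATF6, which is cleaved to a transcription factor when unfolded protein accumulates, read 9.28, 9.20 and 9.29 in empty vector + TNFα cells, against 9.14, 9.18 and 9.14 in empty vector cells, so that the arrays did not overlap. It was also higher in each TNFα array of untransfected cells, at 9.13, 9.11 and 9.19, against 8.95, 9.05 and 8.98 in unstimulated cells. In SIRT6 cells it read 9.21, 9.19 and 9.19 with TNFα, against 9.09, 9.14 and 9.14 without, again with no overlap. In H133W cells it read 9.30, 9.21 and 8.76 with TNFα, against 9.08, 9.05 and 9.07 without, where the lowest value was that of the array that stood apart. The differences in empty vector and untransfected cells of 0.10 and 0.15 (SE 0.0904) did not pass the threshold, with adjusted p = 0.715 and 0.753. The mean over the 4 kinds of cells was 0.087 (adjusted p = 0.248), and 0.129 without that array (adjusted p = 0.00105). EIF2AK3 (PERK), the kinase that slows translation, read 7.65, 7.52 and 7.54 in empty vector + TNFα cells, against 7.76, 7.44 and 7.27 in empty vector cells. Its TNFα arrays lay within the range of the others, with a difference of 0.080 (SE 0.102).

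Because the 4 TNFα responses were measured on separate arrays, their mean rests on 12 arrays against 12 and has a smaller error; this contrast was added after the data had been seen. In it 2 of 31 members passed the adjusted p of 0.05, or 6.45%, against 11.7% of all probe sets. Those that passed were HERPUD1 and WFS1, both lower with TNFα, and 0 of 31 passed the fold threshold as well, against 0.843% of probe sets. Of the members 7 had an unadjusted p under 0.05 (22.6%, against 26.5% of all genes), and the 95% interval of all 31 lay within 1.5-fold. Without H133W + TNFα replicate 3, the array that stood apart, 5 members passed the adjusted p (16.1%, against 18.3% of probe sets). Those added were ATF6, which was higher by 0.129 (adjusted p = 0.00105), DERL3 at -0.185 (adjusted p = 0.00674) and SDF2L1, a component of the ER chaperone complexes, at -0.166 (adjusted p = 0.0108). Without unstimulated replicate 2 the count was 4 (12.9%, against 13.2%), and without the 3 arrays of lowest weight 9 (29%, against 21.2%), so that the members lay below or above the share of all probe sets depending on the arrays kept.

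**Figure D1:**
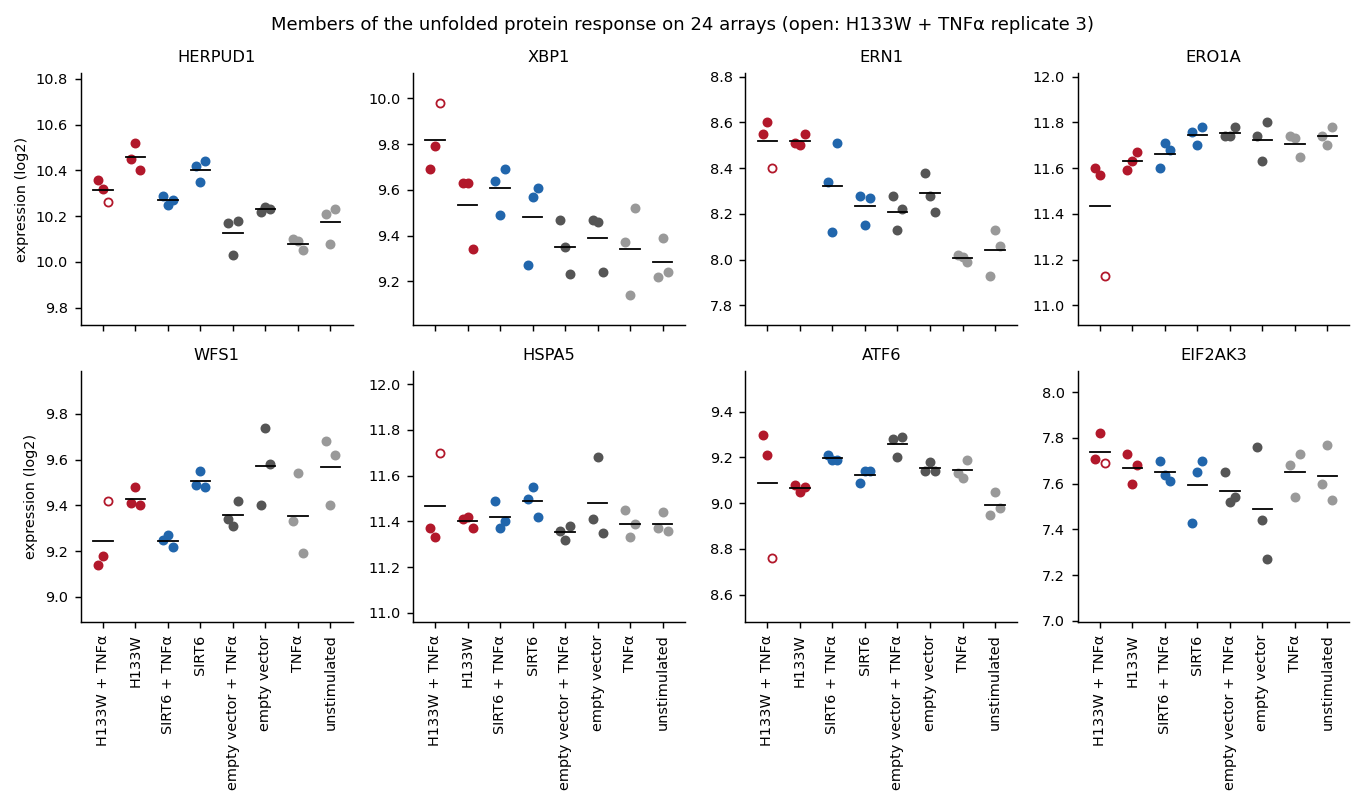
Log2 expression of 8 members on the 24 arrays, by condition, with 1 point per array and a black line at the mean of 3; each panel spans the same range of log2 units. HERPUD1 is highest in H133W and SIRT6 cells without TNFα, WFS1 lies lower with TNFα in each kind of cell, and the open point, H133W + TNFα replicate 3, lies away from its replicates for ERO1A, ATF6 and HSPA5.

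HERPUD1 fell with TNFα in that mean by 0.12 on the log2 scale, or 7.86% (SE 0.0293, adjusted p = 0.0106). It read 10.36, 10.32 and 10.26 in H133W + TNFα cells, against 10.45, 10.52 and 10.40 in H133W cells. In SIRT6 + TNFα cells it read 10.29, 10.25 and 10.27, against 10.42, 10.35 and 10.44 in SIRT6 cells. In empty vector + TNFα cells it read 10.17, 10.03 and 10.18, against 10.22, 10.24 and 10.23 in empty vector cells. None of these pairs overlapped. Only untransfected cells did, with 10.10, 10.09 and 10.05 under TNFα, against 10.21, 10.08 and 10.23 unstimulated. The 4 separate differences were -0.145, -0.13, -0.10 and -0.095 in the order given, none past the threshold by itself. The second HERPUD1 probe set is dim, with a mean level of 3.65, and it too was lower, by -0.20 (adjusted p = 0.00219).

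WFS1 encodes wolframin, an ER membrane protein that restrains the unfolded protein response, and it fell with TNFα by 0.22 on the log2 scale, or 14% (SE 0.0485, adjusted p = 0.00467). It read 9.14, 9.18 and 9.42 in H133W + TNFα cells, against 9.41, 9.48 and 9.40 in H133W cells. It read 9.25, 9.27 and 9.22 in SIRT6 + TNFα cells, against 9.49, 9.55 and 9.48 in SIRT6 cells. SIRT6 cells were the pair without overlap, and in the H133W pair the overlap came from replicate 3 of H133W + TNFα. Empty vector + TNFα cells read 9.34, 9.31 and 9.42, against 9.40, 9.74 and 9.58 in empty vector cells, and untransfected cells read 9.33, 9.54 and 9.19 with TNFα, against 9.68, 9.40 and 9.62 without. The differences were -0.18, -0.26, -0.22 and -0.21, of the same sign in all 4. Both genes kept their direction and an adjusted p under 0.05 in each of 34 alternative analyses, the highest p being 0.0254 for HERPUD1 and 0.0359 for WFS1.

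With wild type SIRT6 none of the members passed the threshold. Against empty vector 0 of 31 were called without TNFα and 0 of 31 with it, where 0.0348% and 0.0695% of all probe sets were, and at the adjusted p alone 0 of 31, against 0.0713% and 0.135%. An unadjusted p under 0.05 was found for 1 and 2 members (3.23% and 6.45%, against 5.07% and 6.73% of all genes), and every confidence interval lay within 1.5-fold in both comparisons. The median difference was -0.00881 without and -0.00586 with TNFα. The arrays did not overlap for 5 of 31 members without TNFα and 6 of 31 with it, against 11.1% and 21.5% of all genes. HERPUD1 was the member with the lowest adjusted p in the mean of both comparisons (added after the data had been seen), with a difference of 0.15 (SE 0.0414, adjusted p = 0.11). HERPUD1 passed there under 5 alternatives, with adjusted p = 0.0182 with array weights, 0.027 in the plain linear model, 0.0364 without the 3 arrays of lowest weight, 0.0422 with dim probe sets left out and 0.0456 with a variance trend. Its arrays did not overlap in either pair: 10.42, 10.35 and 10.44 in SIRT6 cells, against 10.22, 10.24 and 10.23 in empty vector cells, and 10.29, 10.25 and 10.27 in SIRT6 + TNFα cells, against 10.17, 10.03 and 10.18 in empty vector + TNFα cells. In that mean 0 of 31 members passed at the fold threshold, against 0.0585% of probe sets, and 0 of 31 at the adjusted p alone, against 0.644%. The unadjusted p was under 0.05 for 3 members (9.68%, against 9.68% of all genes).

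With the H133W mutant more probe sets were called over the whole array, and the folding genes again stayed within 1.5-fold. Against empty vector 0 of 31 members were called without TNFα, where 0.77% of all probe sets were, and 0 of 31 with TNFα, where 1.4% were. At the adjusted p alone 1 of 31 members passed without TNFα (3.23%, against 3.03% of probe sets) and 3 of 31 with it (9.68%, against 5.25%). The member without TNFα was HERPUD1, which was higher, and those with TNFα were XBP1 and ERN1, which were higher, and ERO1A, which was lower. The count without TNFα was 0 without any 1 of its own 6 arrays, and 3 (9.68%, against 6.29% of probe sets) when the array that stood apart, which enters only through the shared error, was left out. The count with TNFα was 1 without H133W + TNFα replicate 3 (3.23%, against 3.62% of probe sets) or empty vector + TNFα replicate 1, 0 without empty vector + TNFα replicate 2 or 3, and 5 without H133W + TNFα replicate 1 or 2. Where no share of all probe sets is given, these counts show only how the result depends on the arrays kept. The unadjusted p was under 0.05 for 4 members without TNFα (12.9%, against 16.9% of all genes) and for 10 with it (32.3%, against 22.3%). The intervals of 31 and 28 members lay within 1.5-fold. The arrays did not overlap for 8 of 31 members without TNFα and 12 of 31 with it, against 25.7% and 25.3% of all genes.

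**Figure D2:**
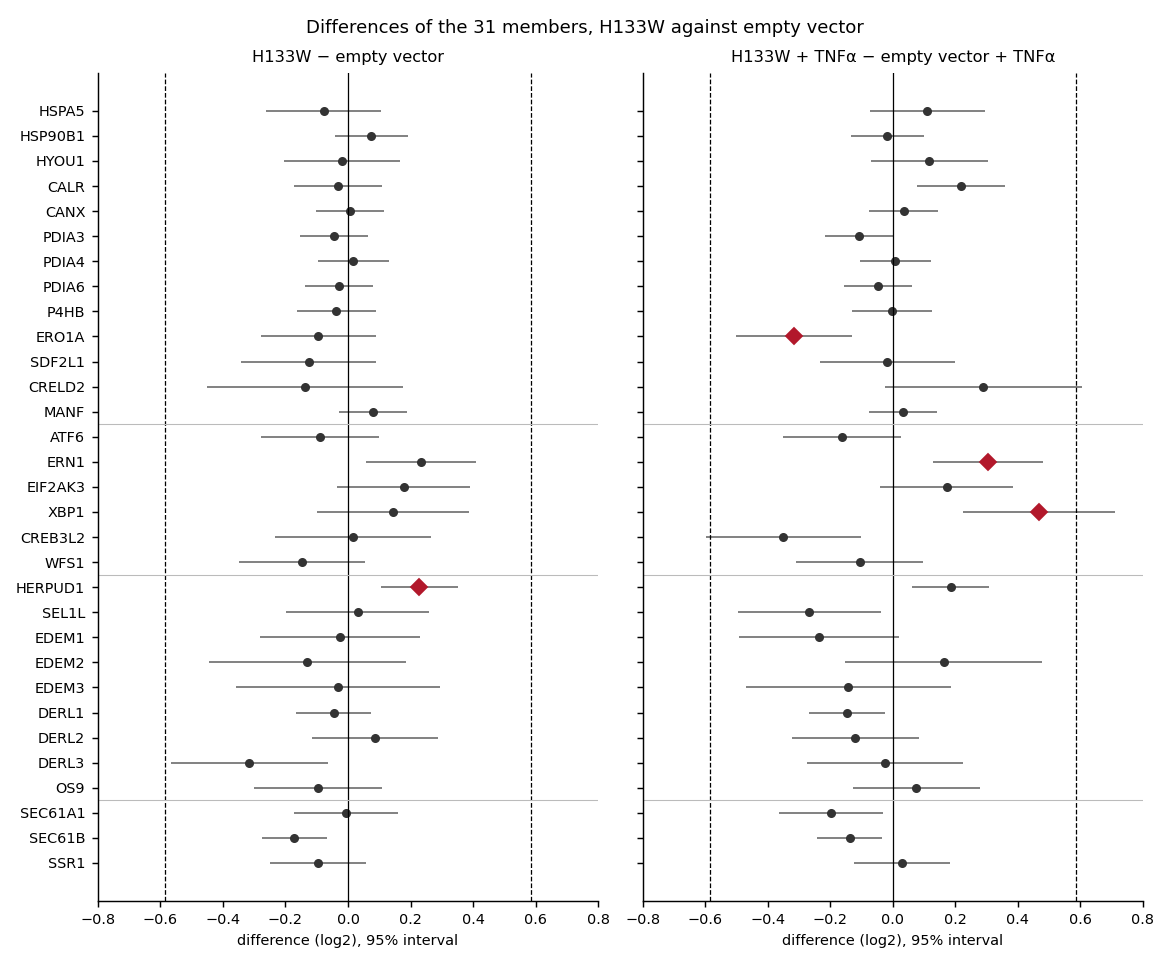
Difference of each of the 31 members on the log2 scale, H133W minus empty vector (left) and H133W + TNFα minus empty vector + TNFα (right), with 95% confidence intervals; dashed lines mark a 1.5-fold change, grey lines part the 4 groups of genes, and red diamonds mark an adjusted p under 0.05. HERPUD1 is the red member without TNFα, and ERO1A, ERN1 and XBP1 are the red ones with it, none beyond a dashed line.

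HERPUD1 read 10.45, 10.52 and 10.40 in H133W cells, against 10.22, 10.24 and 10.23 in empty vector cells. Every H133W array was above every empty vector array, by 0.23 in the mean, or 17.2% (SE 0.0585, adjusted p = 0.0367). With TNFα the values were 10.36, 10.32 and 10.26, against 10.17, 10.03 and 10.18, again without overlap, and the difference of 0.19 had an adjusted p of 0.0721. In the mean of both comparisons, added after the data had been seen, HERPUD1 was higher in H133W cells by 0.21, or 15.4% (SE 0.0414, adjusted p = 0.00259). That difference passed in 22 of 22 alternatives, whereas the single comparison without TNFα no longer passed the adjusted p on leaving out any 1 of its 6 arrays (0.0654 to 0.162). With both HERPUD1 probe sets averaged, the comparison without TNFα had an adjusted p of 0.413. The mean of both comparisons was then 0.146 (adjusted p = 0.0179). The difference between H133W and SIRT6 cells was 0.059 without and 0.045 with TNFα (SE 0.0585), neither past the threshold.

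XBP1, the transcription factor whose mRNA IRE1 splices, read 9.69, 9.79 and 9.98 in H133W + TNFα cells, against 9.47, 9.35 and 9.23 in empty vector + TNFα cells. The arrays did not overlap, and the difference of 0.47, or 38.2% (SE 0.116, adjusted p = 0.0225), was the largest of any member in any of the 12 comparisons. The highest of the 6 values was that of the array that stood apart, and without it the difference was 0.39 with adjusted p = 0.101. It also missed the adjusted p without empty vector + TNFα replicate 2 (0.0724) or replicate 3 (0.11). Without TNFα XBP1 read 9.63, 9.63 and 9.34 in H133W cells, against 9.47, 9.46 and 9.24 in empty vector cells. These overlapped, and the difference was 0.14 (adjusted p = 0.627). In the mean of both comparisons it was 0.31 (SE 0.0821, adjusted p = 0.0214), or 0.27 without that array (adjusted p = 0.0422), and leaving out single arrays gave adjusted p values between 0.0122 and 0.0642, which missed the threshold without H133W replicate 1 or 2, empty vector replicate 3 or empty vector + TNFα replicate 3. The second XBP1 probe set, with a mean level of 5.04, differed by 0.13 (SE 0.235).

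ERN1, which encodes the IRE1 sensor itself, read 8.55, 8.60 and 8.40 in H133W + TNFα cells, against 8.28, 8.13 and 8.22 in empty vector + TNFα cells. In H133W cells it read 8.51, 8.50 and 8.55, against 8.38, 8.28 and 8.21 in empty vector cells. Neither pair overlapped, and the differences were 0.31 with TNFα (SE 0.0844, adjusted p = 0.04) and 0.23 without (adjusted p = 0.166). For ERN1 the array that stood apart lay lowest of its replicates, and the difference without it was 0.36 (adjusted p = 0.0261). Leaving out any 1 of the other 5 arrays of that comparison raised its adjusted p over 0.05, up to 0.161. The mean of both comparisons was 0.27, or 20.6% (SE 0.0597, adjusted p = 0.00582), and its adjusted p stayed under 0.05 when any 1 of the 12 arrays was left out. Neither of its dimmer probe sets passed: the one with a mean level of 5.62 differed by 0.042 (SE 0.0925) and the one with a mean level of 4.19 by -0.12 (SE 0.0621). Empty vector cells themselves lay above unstimulated cells for ERN1, by 0.25 (adjusted p = 0.219).

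ERO1A, the oxidase that recharges protein disulphide isomerases, ran the other way. It read 11.60, 11.57 and 11.13 in H133W + TNFα cells, against 11.74, 11.74 and 11.78 in empty vector + TNFα cells. The lowest value was that of the array that stood apart. The difference was -0.32 (SE 0.0882, adjusted p = 0.0421) with that array and -0.17 (adjusted p = 0.161) without it, and the adjusted p was also over 0.05 without any 1 of the 3 empty vector + TNFα arrays. Without TNFα ERO1A read 11.59, 11.63 and 11.67 in H133W cells, against 11.74, 11.63 and 11.80 in empty vector cells, where the groups overlapped. In the mean of both comparisons the difference was -0.21 (adjusted p = 0.043), and -0.13 without that array (adjusted p = 0.0408). The adjusted p was over 0.05 in 8 of the 12 analyses that left out 1 array, up to 0.106. The other ERO1A probe sets differed by -0.096 (SE 0.0666) and -0.048 (SE 0.046).

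In the mean of both H133W comparisons 5 of 31 members passed the adjusted p, or 16.1%, against 9.25% of all probe sets, and 0 of 31 the fold threshold as well, against 0.829%. The unadjusted p was under 0.05 for 7 members (22.6%, against 25.4% of all genes). The count of 5 became 6 without the array that stood apart (19.4%, against 12.4% of probe sets), DERL3 being added, and 3 without H133W replicate 1 or 2, empty vector replicate 3 or empty vector + TNFα replicate 3. The count of 3 has no share of all probe sets beside it and shows only the dependence on the arrays kept. The fifth, beside HERPUD1, XBP1, ERN1 and ERO1A, was SEC61B, a small subunit of the channel through which proteins enter the ER. SEC61B read 10.66, 10.65 and 10.55 in H133W cells, against 10.81, 10.78 and 10.79 in empty vector cells, and 10.69, 10.65 and 10.64 in H133W + TNFα cells, against 10.80, 10.80 and 10.79 in empty vector + TNFα cells. The arrays were apart in both pairs, and the mean difference was -0.15, or a fall of 10.1% (SE 0.0354, adjusted p = 0.00769). The dim second probe set of SEC61B differed by 0.31 in the opposite direction (SE 0.135, adjusted p = 0.181).

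**Figure D3:**
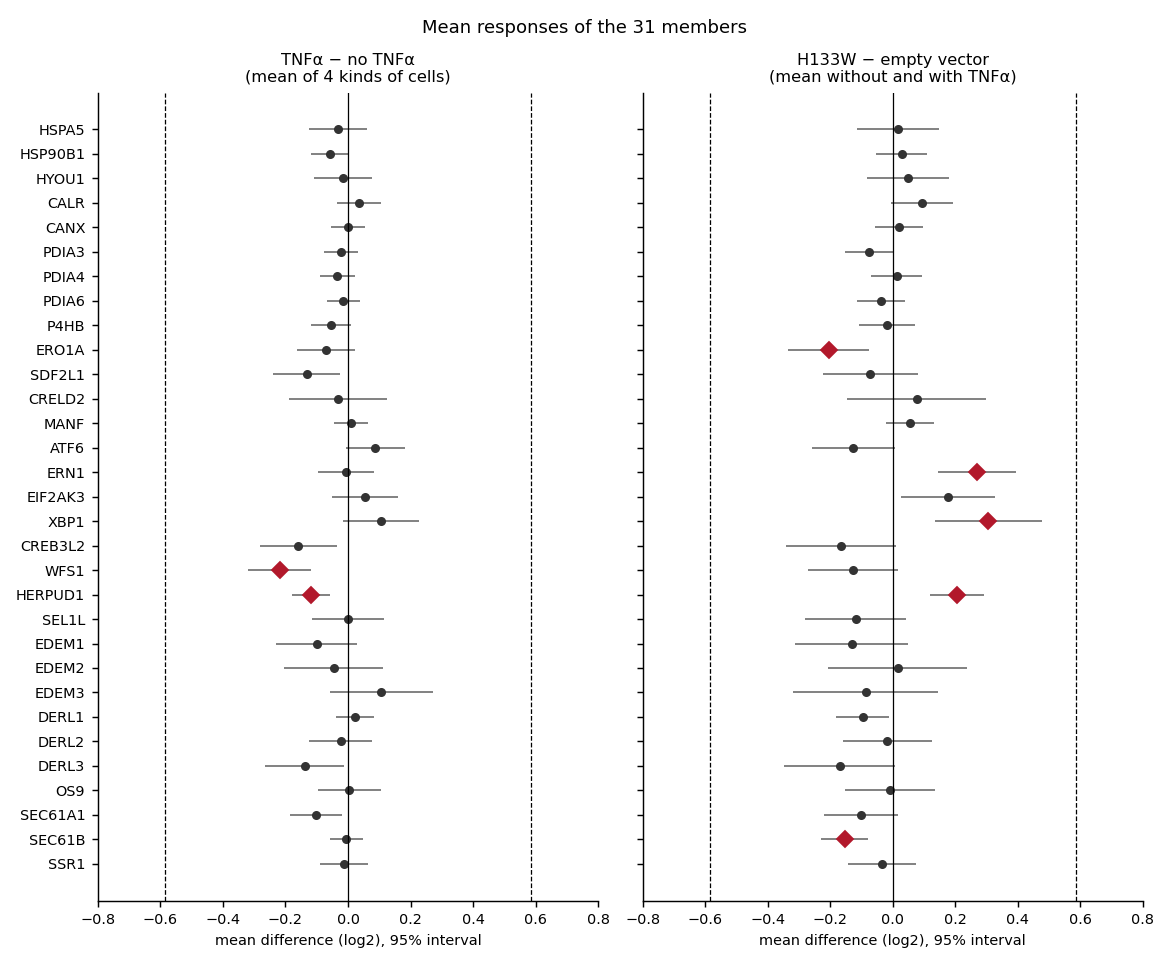
Mean log2 difference of each of the 31 members with 95% confidence interval, for TNFα minus no TNFα over 4 kinds of cells (left, 12 arrays against 12) and for H133W minus empty vector without and with TNFα (right, 6 arrays against 6); dashed lines mark 1.5-fold and red diamonds an adjusted p under 0.05. WFS1 and HERPUD1 are lower with TNFα, HERPUD1, ERN1 and XBP1 are higher and ERO1A and SEC61B lower in H133W cells, and no interval reaches a dashed line.

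SSR1, a subunit of the translocon-associated protein complex that sits beside this channel, depended on the probe set read. Its brightest probe set, the one taken by the rule, differed between H133W and empty vector by -0.033 in the mean of both comparisons (SE 0.0519). The 5 other probe sets of SSR1, looked at after their values were known, were all lower too, by between -0.13 and -0.43. Of these 3 passed, with falls of 0.28 (SE 0.0453, adjusted p = 0.000309), 0.31 (adjusted p = 0.0259) and 0.14 (adjusted p = 0.042). Without the array that stood apart their differences were -0.295, -0.197 and -0.113, in the same order, with adjusted p = 0.000269, 0.0107 and 0.0697. Over all 79 probe sets of the members, 2 passed the adjusted p for H133W against empty vector without TNFα (2.53%, against 3.03% of all probe sets), or 4 (5.06%, against 6.29%) without that array. With TNFα 7 did (8.86%, against 5.25%), or 3 (3.8%, against 3.62%) without that array. The single probe set past 1.5-fold was the dimmest of P4HB, a protein disulphide isomerase, which fell by 0.74 with TNFα (adjusted p = 0.0202), or by 0.399 without that array (adjusted p = 0.0358), while the brightest P4HB probe set differed by -0.0024.

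**Figure D4:**
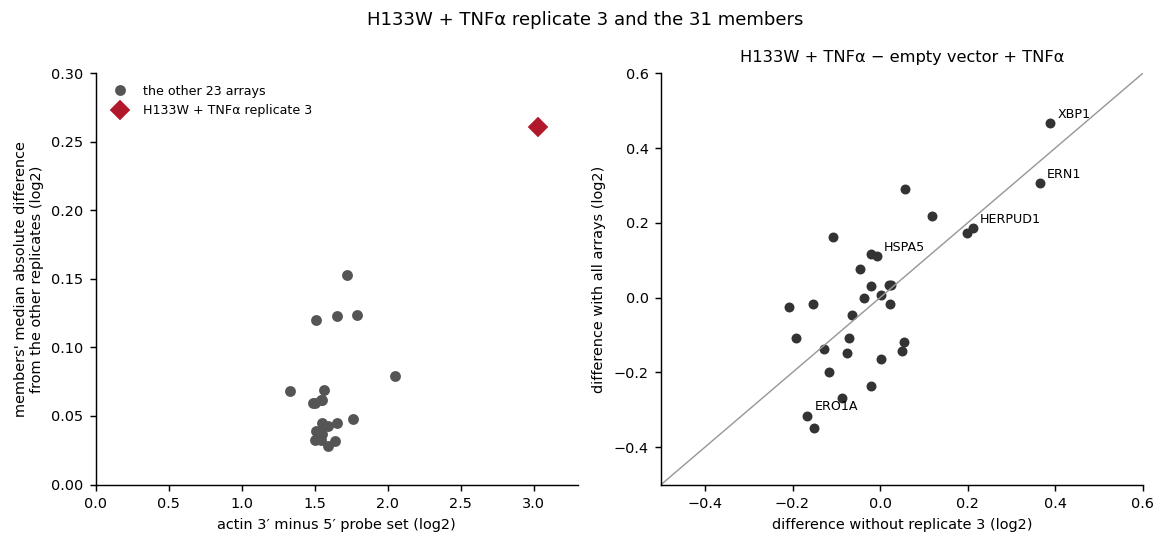
Left, for each of the 24 arrays, the members' median absolute log2 difference from the other replicates of the condition against the log2 excess of the 3′ over the 5′ actin probe set; right, the log2 difference of each of the 31 members between H133W + TNFα and empty vector + TNFα with all arrays against the same without H133W + TNFα replicate 3, with a line where both are equal. The red array lies at 3.03 and 0.261, apart from the other 23, and 22 of 31 members have the larger absolute difference with that array included. The share of all genes for which this held is not given.

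With the array that stood apart left out, the members under H133W and TNFα lay closer to empty vector. The median absolute difference of the 31 members from empty vector + TNFα was 0.138 with all arrays, against 0.107 over all genes, and 0.0702 without that array. The value over all genes without that array is not given, so 0.0702 is not to be set against 0.107. EDEM2, which brings misfolded glycoproteins to degradation, was at 9.19 on it and at 8.45 and 8.30 on the other replicates. EDEM1, of the same family, was at 8.71 on it and at 9.36 and 9.35 on the others, so that the array was high for one and low for the other. CRELD2, a secreted chaperone-like protein raised by ER stress, was at 10.19, against 9.52 and 9.46, and SEL1L, the partner of the ubiquitin ligase SYVN1, at 10.24, against 10.75 and 10.82. CREB3L2, a membrane-bound transcription factor related to ATF6, was at 9.81, against 10.41 and 10.40, and with it the difference from empty vector + TNFα was -0.35 (adjusted p = 0.0952), against -0.15 without it (adjusted p = 0.455). HSPA5 was at 11.70 on that array and at 11.68 on empty vector replicate 2, the array with the next highest actin excess, 2.05. On that empty vector array EDEM2 (8.81) and CRELD2 (9.88) were likewise the highest of their replicates. EDEM1 (9.25), SEL1L (10.60) and CREB3L2 (10.32) were the lowest there. Its part in the comparisons with empty vector was not tested.

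Between H133W and SIRT6 cells no member passed the threshold. There were 0 of 31 called without TNFα, against 0.119% of probe sets, and 0 of 31 with it, against 0.333%, and at the adjusted p alone 0 of 31 in both, against 0.428% and 1.15%. The arrays did not overlap for 12 of 31 members without TNFα, 9 of them lower in H133W cells, and for 5 of 31 with it. Of all genes 24% and 18.3% did not overlap. The unadjusted p was under 0.05 for 2 members without TNFα (6.45%, against 9.12% of all genes) and for 6 with it (19.4%, against 15.7%). Of these ERN1 had the largest difference without TNFα, 0.29 (SE 0.0844, adjusted p = 0.204), with 8.51, 8.50 and 8.55 in H133W cells, against 8.28, 8.15 and 8.27 in SIRT6 cells. A p that misses the threshold does not show that the mutant and the wild type act alike, but the 95% interval of every member without TNFα, and of 30 of 31 with it, excluded a 1.5-fold difference.

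Cells given the empty plasmid were set against cells given no plasmid. Again 0 of 31 members were called, without and with TNFα, against 0.0933% and 0.0329% of probe sets, and 0 of 31 at the adjusted p alone, against 0.269% and 0.0439%, with 1 member in each at an unadjusted p under 0.05 (3.23%, against 10.9% and 8.99% of all genes). The members leaned upwards, 24 of 31 higher in empty vector than in unstimulated cells with a median of 0.0363, and 22 of 31 higher in empty vector + TNFα cells than in untransfected cells with TNFα, with a median of 0.0211. The medians over all genes were 0.0015 and -0.0204 in these comparisons. The tests of whether a plasmid altered the TNFα response (interactions) found 0 of 31 members for SIRT6, 0 of 31 for H133W and 0 of 31 for the empty vector, against 0%, 0.00366% and 0% of probe sets at the adjusted p, and 0, 2 and 0 members at an unadjusted p under 0.05, the 2 being 6.45% of members, against 6.91% of all genes.

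Other genes of the pathway were taken from lists of further ER chaperones, degradation factors, translocon subunits, ER to Golgi transport genes and regulators of the response. Of 18 further ER chaperones, 15 degradation genes, 18 translocon and related genes, 15 transport genes and 14 regulators, 0 were called in any of the 12 comparisons. Of all probe sets between 0.0329% and 1.4% were called in these, so few calls would be looked for in lists of this size. At the adjusted p alone some passed. In the mean TNFα response the regulators TRAF3 (0.454, adjusted p = 5.47e-07) and MAP3K5 (-0.41, adjusted p = 2.82e-06) were among them, against 11.7% of probe sets. In H133W against empty vector cells the chaperone gene SDF2 passed (-0.229, adjusted p = 0.0161), against 3.03%. The genes listed for the PERK-ATF4-CHOP branch gave other counts. PERK activity was not measured, and whether these genes changed through PERK was not tested. Of the 12 measured genes of this list 4 were called in H133W against empty vector cells, all higher, where 0.77% of all probe sets were called. The median over the list was 0.467, against a median of -0.0322 over the 31 members. The 4 genes called were PPP1R15A (difference 1.21), which reverses the translational block of PERK, ATF3 (1.10) and DDIT3, or CHOP (0.81), both transcription factors, and CHAC1 (1.08), an enzyme that degrades glutathione. With TNFα 6 of 12 were called, against 1.4% of probe sets, and 5 without the array that stood apart, with medians of 0.583 and 0.485. In SIRT6 against empty vector cells 3 of 12 were called (CHAC1, PPP1R15A and ATF3), against 0.0348% of probe sets, with a median of 0.267, and CHAC1 was higher by 1.06 in empty vector than in unstimulated cells too. Between H133W and SIRT6 cells 1 of 12 was called without TNFα and 1 of 12 with it, against 0.119% and 0.333% of probe sets. In the mean TNFα response PPP1R15A (0.671) was called higher and VLDLR (-0.755) lower, against 0.843% of probe sets called. At the adjusted p alone 1 of 12 was higher and 7 were lower there, against 11.7% of probe sets. The earlier results of these data were known when the list was written, so its counts are not independent of them.

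**Figure D5:**
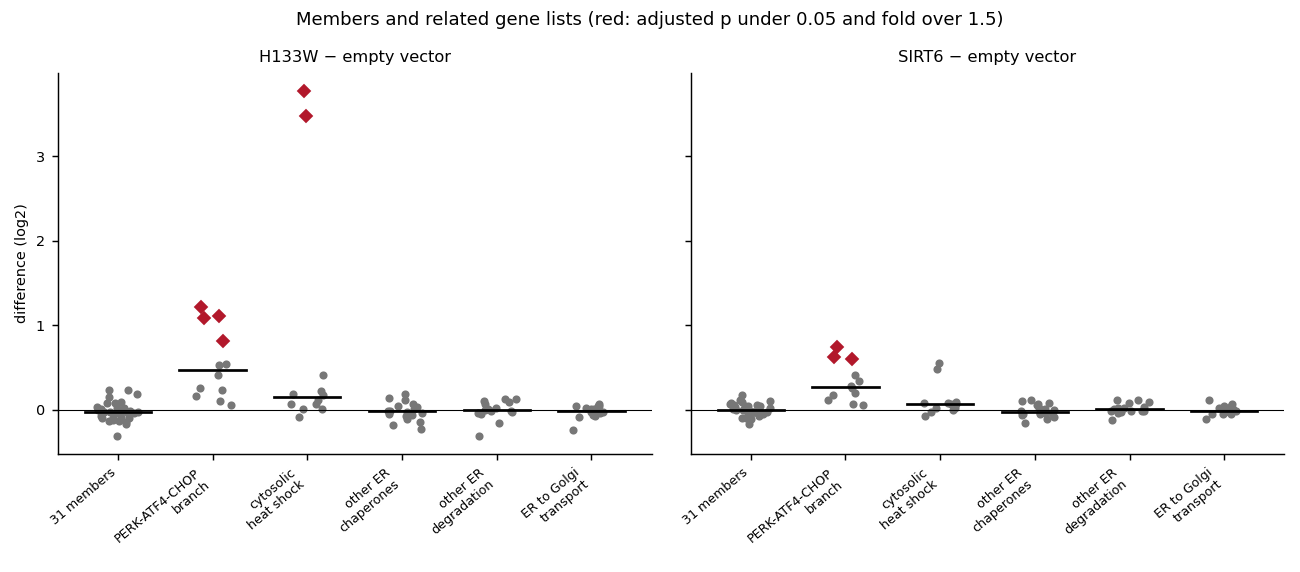
Log2 difference of each gene from empty vector cells, for H133W (left) and SIRT6 (right), in the 31 members and in 5 related lists, without TNFα; each point is a gene, the black line the median of the list, and red diamonds mark an adjusted p under 0.05 with a fold change over 1.5. The members and the further ER lists lie around 0, while 4 genes of the PERK-ATF4-CHOP branch and 2 cytosolic heat shock genes are red in H133W cells.

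Chaperones outside the ER were listed as well, most of the cytosol, with HSPD1 and HSPE1 of the mitochondrion among them. Of 12 measured heat shock genes 2 were called in H133W against empty vector cells, CRYAB (3.78), a small heat shock protein, and HSPA6 (3.48), an inducible Hsp70, and 4 were with TNFα. Of all probe sets 0.77% and 1.4% were called in these comparisons. With TNFα it was 3 without the array that stood apart. The median of the 12 was 0.146 without TNFα, far below the values of the genes called. In SIRT6 against empty vector cells 0 of 12 were called, against 0.0348% of probe sets. With TNFα 1 of 12 was, CRYAB (0.659, adjusted p = 0.00141), against 0.0695% of probe sets. HSPA5, the Hsp70 of the ER, differed by -0.078 between H133W and empty vector cells (SE 0.0883), with 11.41, 11.42 and 11.37 in H133W cells, against 11.41, 11.68 and 11.35 in empty vector cells. These overlapped, and the 11.68 was that of empty vector replicate 2, the array with the next highest actin excess. HSP90B1, the Hsp90 of the ER, read 11.13, 11.19 and 11.17 in H133W cells, against 11.01, 11.10 and 11.16 in empty vector cells, and overlapped likewise.

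The promoter elements shown above allowed the members to be divided by sequence. In H133W against empty vector cells the 10 members with an ERSE or ERSE-II had a median difference of -0.0247, and the 18 measured members without one, of -0.0293. With TNFα the medians were 0.114 and -0.113, but without the array that stood apart they were 0.0216 and -0.029. For SIRT6 against empty vector they were 0.00164 and 0.00689, and for the mean TNFα response -0.0242 and -0.0181. The highest difference within the 10 was that of HERPUD1 without TNFα and that of XBP1 with it. In the PERK-ATF4-CHOP list 0 of 12 genes had an ERSE or ERSE-II in their window, and 2, CHAC1 and CEBPG, had the element TGATGCAA that HERPUD1 also carries. A match describes the letters of a window and is not a measured binding site.

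Further members are given here. PDIA3, PDIA4 and PDIA6, disulphide isomerases, and CANX, the membrane lectin that holds glycoproteins, passed the adjusted p in none of the 12 comparisons. CANX read 12.77, 12.80 and 12.83 in H133W + TNFα cells, against 12.77, 12.79 and 12.73 in empty vector + TNFα cells, which overlapped. CALR, the soluble lectin chaperone, read 11.66, 11.68 and 11.97 in H133W + TNFα cells, against 11.58, 11.56 and 11.52 in empty vector + TNFα cells, a difference of 0.22, or 0.118 without the array that stood apart (adjusted p = 0.285). DERL3, a channel protein of the degradation pathway, was lower in H133W cells at 6.88, 6.98 and 6.95, against 7.14, 7.30 and 7.32 in empty vector cells. Those arrays did not overlap, as was so for 25.7% of all genes, and the difference of -0.32, the lowest of the 31 members there, had an adjusted p of 0.197. When arrays were weighted the adjusted p was 0.0426, and with the 3 lowest-weight arrays left out it was 0.0399. Its mean over both H133W comparisons was -0.17 (adjusted p = 0.252), and -0.262 without the array that stood apart (adjusted p = 0.0109). HYOU1, SDF2L1 and MANF, targets of ATF6 and XBP1, and the degradation genes EDEM3, DERL1, DERL2 and OS9 did not pass the adjusted p in any of the 12 comparisons with all arrays.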

How the data were processed

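Log2 expression values of 54675 probe sets on 24 arrays were used as deposited by the authors, who normalized them by RMA in ArrayStudio. The labels name the replicates of each condition as biological. Group differences were fitted with limma 3.58.1 in R 4.3.3 over all 8 conditions, with p-values adjusted by Benjamini-Hochberg over all probe sets, and the procedure was tested on simulated data. Calls required that a change exceed 1.5-fold at an adjusted p below 0.05. For each gene the probe set with the highest mean among those of 1 gene was read. Per-array values were given for members past the adjusted p in a comparison and always for HSPA5, XBP1, HERPUD1, ATF6, ERN1 and EIF2AK3, and genes of the related lists were named where called, up to 4 a comparison; the other members given by array were chosen after their values were seen. The members, the related lists and the contrasts over several comparisons were chosen with earlier results of these data known, and the further probe sets of SSR1, SEC61B, WFS1 and P4HB after their values were seen. HSP90B1, CALR and OS9 were read by probe sets that may cross-hybridise. Array intensities carry no read depth, so the number of arrays limits the precision. There were 0 columns without a sample. Alternatives comprised other probe sets, filters, models, array weights and left-out arrays. Promoters were taken from RefSeq on GRCh38.p14.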

Additional observations from a re-analysis of the deposited data

How the results depend on the processing

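With the fold threshold dropped, 1 member passed for H133W against empty vector, 3 for H133W + TNFα against empty vector + TNFα, 2 in the mean TNFα response and 5 in the mean H133W difference, and under the other alternatives 0 members passed both thresholds in any comparison. The mean H133W difference of SEC61B turned to 0.0779 (adjusted p = 0.59) when all probe sets of a gene were averaged, and that of ERN1 was then 0.0642 (adjusted p = 0.439). Replicate numbers did not pair the samples: arrays of the same number had a median correlation of -0.00281 in their deviations (n = 84), against -0.0096 for arrays of different numbers (n = 168). With a replicate block 0 members passed both thresholds, and at the adjusted p alone 1 passed instead of 3 for H133W + TNFα against empty vector + TNFα, and 4 instead of 5 in the mean H133W difference. Leaving out single arrays moved the count at the adjusted p between 0 and 5 for H133W + TNFα against empty vector + TNFα. No share of all probe sets stands beside these counts or those of the replicate block, which show only a dependence on processing. Leaving out the 3 arrays of lowest weight, chosen after the data were seen, gave 9 members instead of 2 in the mean TNFα response (29%, against 21.2% of probe sets), and array weights also 9 (29%, against 25.9%). The causes were not tested.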

Other observations

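Some probe sets of the members that were not the brightest of their gene differed with TNFα in the mean of the 4 responses, and they were looked at after their values were known. An ERN1 probe set with a mean level of 5.62 was lower by -0.33 (adjusted p = 0.00186), while the brightest ERN1 probe set differed by -0.0063. A second CREB3L2 probe set was lower by -0.35 (adjusted p = 0.00403), and a second ATF6 probe set was higher by 0.11 (adjusted p = 0.015). Over the 8 condition means the genes most like XBP1, HERPUD1 and ERN1 among 12795 candidates were KCNT2 (r = 0.988), ZC3H7A (r = 0.986) and KCNQ5 (r = 0.988). Each is the highest of 12795 correlations over only 8 values, where high values can arise from the search alone. A shared regulation was not tested.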
